A study of Mus musculus with 4 samples.

Results

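Transcripts of 10 genes of the interleukin 6 family axis were followed in muscle stem (satellite) cells. They were the cytokines Il6, Lif and Osm, the receptor chains Il6ra, Lifr, Osmr and Il6st, the kinase Jak1, the transcription factor Stat3 and its feedback inhibitor Socs3. The genes were chosen by symbol, and all 10 were found among the 55487 gene identifiers of the deposited tables. The cells came from skeletal muscle of 2 mice of genotype Tg:Pax7-nGFP, in which a nuclear green fluorescent protein reports Pax7. Minced muscle of each mouse was treated, while it was first digested, with a vivo-morpholino that blocks inclusion of exon 6 of Numb, or with a control morpholino, so that each group holds 2 libraries and 1 library of each mouse. A vivo-morpholino is an antisense oligomer that enters cells unaided. The 4 libraries thus share the transgene, the digestion and exposure to a morpholino. Age, sex and the control sequence are not stated in the labels, and 1 oligomer stands for each treatment.

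The cytokines followed here share the signal transducer gp130, encoded by Il6st, and each also uses a further receptor chain. Interleukin 6 uses Il6ra, leukemia inhibitory factor (Lif) uses Lifr and, in the mouse, oncostatin M (Osm) acts mainly through Osmr. The complex activates Janus kinases such as Jak1, which phosphorylate Stat3, and Stat3 induces Socs3, which blocks the receptor complex in turn. In mouse satellite cells, interleukin 6 and Lif are known to act on proliferation and differentiation through Stat3, and oncostatin M is known to promote quiescence. Messenger RNA does not show phosphorylation of Stat3, so activity of the pathway was not measured.

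The estimated counts per library summed to between 230431665 and 355411827. Low values piled up at 4, 8 and 12, so a fragment may be worth several counts, and depth in fragments is unknown. Counts of AY036118 and CT010467.1, which resemble ribosomal RNA, made up 5.06% and 5.00% of the total in mouse 2 (exon 6 morpholino, then control), against 6.53% and 8.95% in mouse 1. The control of mouse 1 thus had the highest share, and it also had the fewest genes above 0, 34749. Markers of satellite cells had the highest sum of 9 marker lists, at 8999.8 to 10812 TPM per library. TPM is transcript abundance scaled to transcript length and to the library. Sdc4 stood at 6499 to 7673 and Vcam1 at 802 to 1246 TPM, so Sdc4 made up most of each sum. The lists differ in length, so these sums do not measure the purity of the cells. Markers of fibro-adipogenic progenitors summed to 1690 to 1917 TPM (Gsn and Col3a1 the most abundant), and the 5 erythroid markers, led by Hba-a1 and Hbb-bs, to 538 to 1733 TPM. Smooth muscle, myofibre, endothelial, glial, tenocyte and leukocyte markers summed to at most 265 TPM each, and no marker was at 0 in all 4 libraries. Numb, the targeted gene, stood at 60.3 and 58.7 CPM (counts scaled to library size) in the Numb exon 6 libraries of mouse 1 and mouse 2, against 44.6 and 53.8 CPM in their controls. The morpholinos differed there by 0.27 ± 0.14 on the log2 scale (SE, n = 2 libraries each; edgeR adjusted p = 0.999), and values per gene do not show whether exon 6 was skipped.

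In every library, Stat3, Jak1, Osmr, Socs3 and Il6st were more abundant than any of the 3 cytokines. Stat3 had the highest level of the 10 genes, at a mean of 988 ± 95.2 TPM (SD over the 4 libraries), and ranked 120 among all 55487 identifiers by mean TPM. Jak1 followed at 306 ± 24.7 TPM and Osmr, the oncostatin M receptor, at 201 ± 19.1 TPM. Socs3 stood at 118 ± 30.2 TPM and Il6st at 73.0 ± 7.01 TPM. The ranges of Stat3, Jak1, Osmr and Socs3 over the libraries did not overlap with one another. Those of Socs3 and Il6st did, although Socs3 was above Il6st in 4 of 4 libraries. Lif averaged 25.2 ± 11.8 TPM, Il6 24.2 ± 6.09 TPM and Lifr 22.1 ± 3.52 TPM, and the ranges of these 3 overlapped, so their order is not settled. Il6ra, at 4.69 ± 1.16 TPM, lay below all of them and was the scarcest receptor chain. Osm was at the edge of detection, at 0.129 ± 0.125 TPM. Among the receptor chains, Osmr thus averaged 201 TPM, Il6st 73.0 TPM, Lifr 22.1 TPM and Il6ra 4.69 TPM, an order that was the same in each library for every neighbouring pair. In whole-population RNA, more cells that express a gene and more RNA per cell cannot be told apart.

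**Figure D1:**
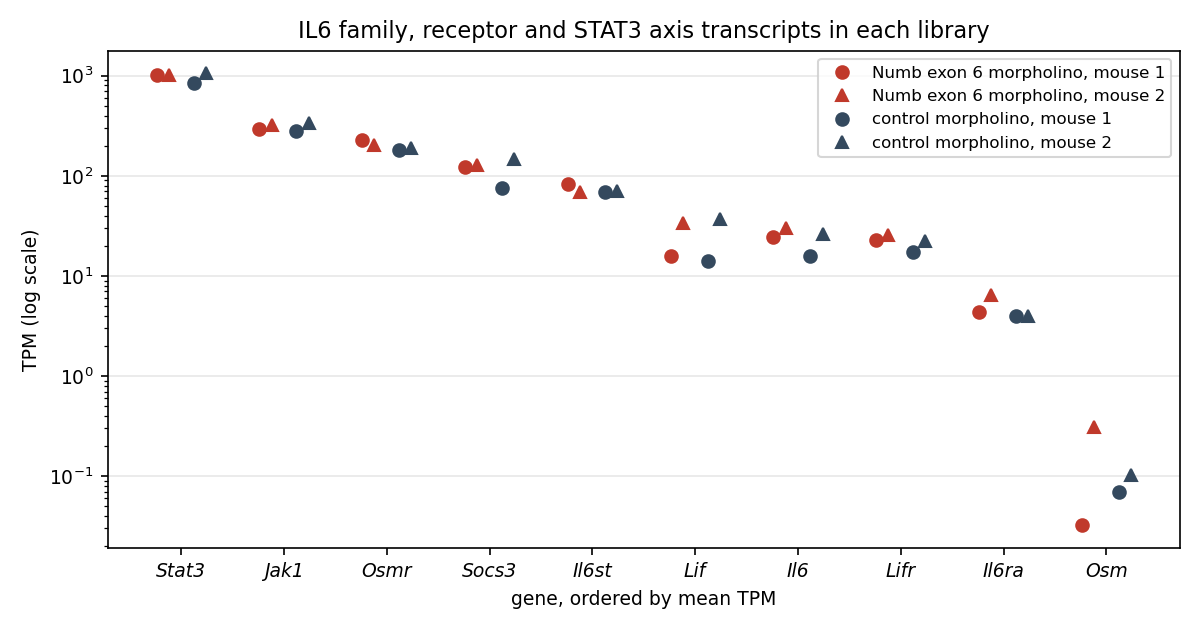
TPM (log axis) of the 10 genes in each of the 4 libraries, ordered by mean TPM; red points are Numb exon 6 and dark points control morpholino libraries, circles mouse 1 and triangles mouse 2. Stat3 sits between 847 and 1057 TPM and Osm between 0.0323 and 0.311 TPM, and both Lif values of mouse 2 lie above both of mouse 1.

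Some of these genes lie beside other genes or overlap them. Lif (chromosome 11, 4257557 to 4272514, plus strand) and Osm (chromosome 11, 4236420 to 4241026, plus strand) are neighbours in GRCm38 and do not overlap. Stat3 (chromosome 11, 100885098 to 100939540, minus strand) overlaps the end of Stat5a, which ends at 100885169 on the opposite strand. Il6ra (chromosome 3, 89864059 to 89913196, minus strand) overlaps the antisense gene Gm42809, which stood at 0.219 to 1.21 TPM. Jak1 overlaps Raver2 and Gm24468 on the opposite strand and the pseudogene Gm12785 on its own strand. Their means were 5.53, 4.89 and 0.342 TPM, well under Jak1. The library method does not mark strand, so reads from such overlaps cannot be told apart. Stat5a stood at 53.2 to 101 TPM, well under Stat3.

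None of the 10 genes passed the test for a difference between the Numb exon 6 and the control morpholino. The comparison asked which transcripts follow the block of exon 6 during satellite cell activation. By edgeR's quasi-likelihood test on the estimated counts, 0 of the 10 and 0 of the 27551 genes tested (0%) had an adjusted p under 0.05, and 0 of the 10 had an unadjusted p under 0.05, against 4.16% of all genes. DESeq2 called 0 of the 10 as well, and 65 of all genes (0.236%). The adjusted p of each of the 10 was 0.999, and each of their 95% intervals took in 0. Log2 ratios within a mouse are differences in log2 CPM, Numb exon 6 minus control. They were positive in both mice for Il6, Osm, Lifr and Osmr, negative in both for Jak1, and of opposite sign for the other 5. On log2(TPM + 1) Osm and Jak1 turned sign and Il6ra became positive in mouse 1, which gave 4 positive in both mice (Il6, Il6ra, Lifr and Osmr), 0 negative and 6 opposite. Over all tested genes 28.1% were positive in both mice, 27.3% negative in both and 43.9% opposite. The median log2 fold change of the 10 was 0.14, beside 0.005 over all genes.

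Among the cytokines, Il6 stood at 24.6 and 30.2 TPM in the Numb exon 6 libraries of mouse 1 and mouse 2, against 15.8 and 26.3 TPM in the controls. The groups overlapped, and only the control of mouse 1 stood apart as low. Its log2 ratio was 0.56 within mouse 1 and 0.01 within mouse 2, and its log2 fold change 0.23 ± 0.31 (SE; 95% interval -0.55 to 1.01). Lif stood at 15.9 and 33.5 TPM in the Numb exon 6 libraries, against 14.2 and 37.2 TPM in the controls. Its values paired by mouse and not by morpholino, and its log2 fold change was -0.09 ± 0.58 (SE; interval -1.56 to 1.37). That fit does not block for mouse, so its SE takes in the difference between the mice. With the mouse as a block the log2 fold change of Lif was -0.04 ± 0.11 (SE, interval -0.34 to 0.25). Osm had estimated counts of 13 and 71 in the Numb exon 6 libraries, against 13 and 14 in the controls. Only the exon 6 library from mouse 2 was high. Its log2 fold change of 2.04 ± 1.20 (SE; interval -1.03 to 5.10) was -0.033 without that library.

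Oncostatin M is known as a product of myeloid cells, and the summed TPM of leukocyte markers was highest in the library where Osm was highest. The 16 leukocyte markers summed to 55.0 and 151 TPM in the Numb exon 6 libraries of mouse 1 and mouse 2, against 44.5 and 53.9 TPM in the controls. Between the mice, 5 of the 16 were higher and 6 lower in mouse 2 under both morpholinos, so the sum does not speak for each marker. Over all genes these shares were 29.9% and 27.6%. Cd68, a macrophage gene, stood at 17.9 and 21.2 TPM with the Numb exon 6 morpholino, against 17.6 and 20.7 TPM with the control. The neutrophil gene S100a8 stood at 2.14 and 46.5 TPM in the Numb exon 6 libraries, against 1.78 and 4.23 TPM in the controls. Csf3r, the neutrophil growth factor receptor and chosen after its values were seen, stood at 0.0156 and 0.517 TPM in the exon 6 libraries, against 0.00514 and 0.00582 TPM in the controls. Of 15 tested leukocyte markers 10 were higher and 2 lower in both mice, against 28.1% and 27.3% of all genes, and their median log2 fold change was 1.38, the highest of the lists. By edgeR 0 were called, while 4 had an unadjusted p under 0.05 (4.16% of all genes), and 6 did once mouse was blocked for (6.09%). The part of these cells in the Osm values was not tested.

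Among the receptor chains, Lifr and Osmr were the 2 genes whose Numb exon 6 libraries both lay above both controls in CPM, as did 17.4% of all genes. None of the 10 had both below (17.1% of all genes). Lifr stood at 23.0 and 25.8 TPM in the Numb exon 6 libraries, against 17.4 and 22.2 TPM in the controls. Its log2 ratios were 0.34 and 0.20 within mouse 1 and mouse 2, and its log2 fold change 0.26 ± 0.15 (SE; interval -0.13 to 0.65). Osmr stood at 227 and 204 TPM in the Numb exon 6 libraries, against 183 and 192 TPM in the controls. Its ratios were 0.22 and 0.06, and its log2 fold change 0.14 ± 0.11 (SE; interval -0.13 to 0.41). Neither passed the test, and the intervals of both end below a 2-fold change. Lifr had 0.11 without the control of mouse 1, and Osmr had 0.069 without the exon 6 library from mouse 1. Il6ra stood at 4.34 and 6.41 TPM in the Numb exon 6 libraries, against 4.02 and 3.98 TPM in the controls. It was highest in the library where Osm and S100a8 were highest, and the part of leukocytes in this was not tested. Its log2 ratio within mouse 1 was -0.24 in CPM and 0.09 on log2(TPM + 1), so its direction there depends on the scale. Il6st, the shared chain, stood at 83.4 and 68.8 TPM in the Numb exon 6 libraries, against 68.8 and 70.9 TPM in the controls, with a log2 fold change of 0.06 ± 0.13 (SE).

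Downstream of the receptors, Jak1 stood at 291 and 319 TPM in the Numb exon 6 libraries, against 281 and 334 TPM in the controls, and had a log2 fold change of -0.08 ± 0.12 (SE; interval -0.38 to 0.22). Stat3 stood at 1027 and 1019.9 TPM in the Numb exon 6 libraries, against 847 and 1057 TPM in the controls. The control of mouse 1 was lower than the other 3 libraries, which lay close together. The log2 fold change of Stat3 was 0.08 ± 0.13 (SE; interval -0.26 to 0.41). Socs3 stood at 123 and 129 TPM in the Numb exon 6 libraries, against 75.7 and 146 TPM in the controls. The controls of the mice lay on both sides of the Numb exon 6 libraries, with log2 ratios of 0.62 within mouse 1 and -0.21 within mouse 2. Its log2 fold change was 0.14 ± 0.30 (SE; interval -0.62 to 0.89). The control of mouse 1 was the lowest library for 8 of the 10 genes in TPM (all but Osm and Il6ra) and for 7 of the 10 in CPM. Il6st is among the 8 only by 68.840 against 68.846 TPM, and its lowest CPM was in the exon 6 library of mouse 2. The share of all genes that were lowest in this control was not counted, so the count is not shown to be particular to the 10. The control of mouse 1 is also the library with the highest rRNA-like share, whose part in these values was not tested. Without it the log2 fold changes of Il6, Stat3 and Socs3 were -0.13, -0.070 and -0.25.

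**Figure D2:**
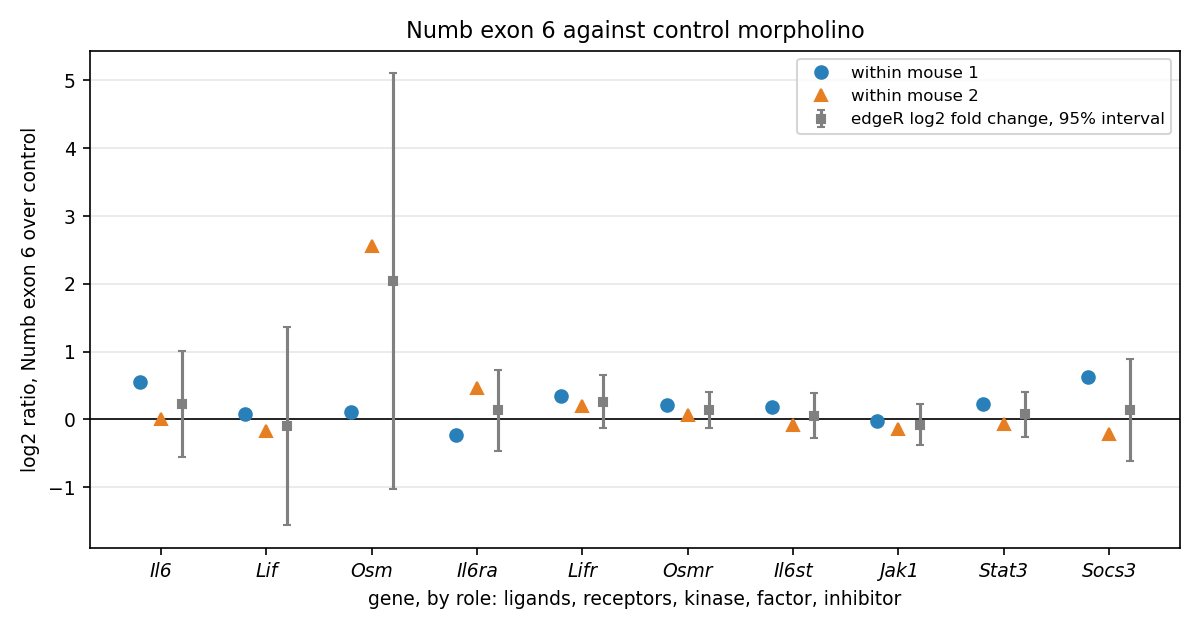
Log2 ratio of Numb exon 6 over control morpholino for the 10 genes (CPM), within mouse 1 (circles) and within mouse 2 (triangles), with the edgeR log2 fold change and its 95% interval (grey squares, n = 2 per group). All 10 intervals take in 0, and that of Osm is the widest, at -1.03 to 5.10.

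Other genes of the pathway gave 0 edgeR calls in either direction in each of 6 lists. Of all 27551 genes tested 0 were called (0%), so this is not particular to the lists. Of 9 other ligands of the family, the cytokine gene Clcf1 was among the most abundant. Clcf1 stood at 190.4 and 594 TPM in the Numb exon 6 libraries, against 181 and 212 TPM in the controls. Its exon 6 library from mouse 2 stood alone as high, with log2 ratios of -0.04 and 1.20 within the mice and a log2 fold change of 0.76 ± 0.47 (SE). Clcf1 was more abundant than Il6 and Lif in every library. The chain Cntfr stood at only 0.530 to 1.33 TPM, while Il11ra1, the interleukin 11 receptor, stood at 118.5 to 195 TPM. Ebi3, a subunit of interleukin 27 and the ligand gene with the smallest p, had estimated counts of 17 and 10 with the Numb exon 6 morpholino and 0 and 0 with the control (edgeR unadjusted p = 0.0309, adjusted p = 0.999). Of the 4 other receptor chains, Il27ra and Il31ra had the smallest p, with log2 fold changes of 1.43 ± 0.60 and -0.82 ± 0.50 (SE) at levels under 1 TPM. Median log2 fold changes were -0.07 for the ligands and -0.24 for the 4 receptors.

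Of 9 other Janus kinases and STAT factors, 2 were positive and 1 was negative in both mice (median log2 fold change 0.01). Over all tested genes 28.1% were positive and 27.3% negative in both mice, and the counts of each list below stand beside these shares. Stat5a and Stat5b were the most abundant, with log2 fold changes of -0.06 ± 0.35 and 0.20 ± 0.16 (SE), and the scarce kinase Jak3 had -0.66 ± 0.46 (SE). Of 16 inhibitors, 6 were higher and 5 lower in both mice (median 0.03). The phosphatase Ptpn2 had 0.32 ± 0.13, the phosphatase Ptpn1 0.11 ± 0.10 and the STAT inhibitor Pias1 0.19 ± 0.14 (SE), none past the test. Of 26 known targets of Stat3, 11 had positive and 2 negative ratios in both mice (median 0.08). Junb and Myc were the most abundant, with log2 fold changes of 0.23 ± 0.34 and 0.10 ± 0.12 (SE). Fos had 0.44 ± 0.11 and Irf1 0.63 ± 0.30 (SE), the smallest p of the list. At an unadjusted edgeR p under 0.05 there was 1 of the 26 targets (Fos), against 4.16% of all genes. With the mouse as a block there were 6 (23.1%), against 6.09% of all genes, and 0 passed adjustment. The list was chosen with earlier results of these data known, so this share is not independent evidence. The 6, chosen after their values were seen, were Junb, Fos, Cebpd, Nfil3, Fosl2 and Irf1, each with a positive log2 fold change. Several of them are also immediate early genes. Of 21 feedback genes of NF-kB and inflammatory genes known to be induced with Il6, 10 were higher and 3 lower in both mice (median 0.17). Csf1 had -0.23 ± 0.11 and Tnf 1.32 ± 0.66 (SE), the smallest p of that list, and neither passed.

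The difference with the smallest p among the 10 genes was that of Lif between the mice. This sets 1 animal against 1, whose libraries carry different morpholinos, so SE and p tell nothing of the spread from animal to animal. Lif stood at 33.5 and 37.2 TPM in mouse 2 (exon 6 morpholino, then control), against 15.9 and 14.2 TPM in mouse 1. The mice did not overlap, and the log2 ratio was 1.17 between the Numb exon 6 libraries and 1.42 between the controls. The log2 fold change was 1.30 ± 0.12 (SE, n = 2 libraries per mouse; interval 1.00 to 1.59), a 2.46-fold higher level in mouse 2. Over all genes its edgeR adjusted p was 0.113, with 7 of 27551 genes called (0.0254%). It was the 1 gene of the 10 at an unadjusted p under 0.05, against 8.31% of all genes. With the morpholino as a term in the edgeR fit there were 3 (Il6, Lif and Lifr), against 2596 of 27551 genes, and none of the 3 passed adjustment. Lif was called by DESeq2 (adjusted p = 2.8e-15), which called 1.78% of all genes, by edgeR without a filter on low counts (adjusted p = 1.2e-04; 0.263% called) and with only genes that reached a CPM of 5 in 2 or more libraries (adjusted p = 0.00978; 0.427% called). Its adjusted p over all alternatives ran from 2.8e-15 to 0.354.

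Il6 and Socs3 also had higher values in mouse 2, most of all between the controls, and neither passed the test. Il6 stood at 30.2 and 26.3 TPM in mouse 2 (exon 6 morpholino, then control), against 24.6 and 15.8 TPM in mouse 1. Its log2 ratio was 0.28 between the Numb exon 6 libraries and 0.83 between the controls, with a log2 fold change of 0.53 ± 0.21 (SE; edgeR adjusted p = 0.602). Socs3 stood at 129 and 146 TPM in mouse 2, against 123 and 75.7 TPM in mouse 1. Its log2 ratio was 0.07 between the Numb exon 6 libraries and 0.90 between the controls, a contrast that rests on 1 library each and was not tested. The log2 fold change of Socs3 was 0.45 ± 0.22 (SE; edgeR adjusted p = 0.654). Without the control of mouse 1 the log2 fold changes between the mice were 0.28 for Il6 and 0.17 for Socs3, and without the exon 6 library from mouse 1 they were 0.83 and 0.79. Stat3 and Jak1 had log2 fold changes of 0.16 ± 0.11 and 0.16 ± 0.09, Lifr 0.24 ± 0.15, Il6ra 0.21 ± 0.21, Osmr -0.06 ± 0.11 and Il6st -0.14 ± 0.11 (SE). That of Osm, 2.15 ± 1.18 (SE), was 0.23 when the exon 6 library from mouse 2 was left out. In CPM, 6 of the 10 genes (Il6, Lif, Osm, Jak1, Stat3 and Socs3) had both libraries of mouse 2 above both of mouse 1, as did 20.9% of all genes. Il6st had both below, as did 18.8%, but its controls nearly tied, at 310.72 CPM in mouse 2 against 310.84 CPM in mouse 1. Osm is among the 6 by an estimated count of 14 in the control of mouse 2, against 13 in each library of mouse 1. Stat3 overlapped between the mice in TPM, at 1019.9 in the exon 6 library of mouse 2 against 1027 in that of mouse 1. By sign alone, 7 were higher in mouse 2 under both morpholinos (29.9% of all genes) and 1 was lower (27.6%). The rRNA-like share was lower in both libraries of mouse 2 than in both of mouse 1, and its part in these differences was not tested.

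**Figure D3:**
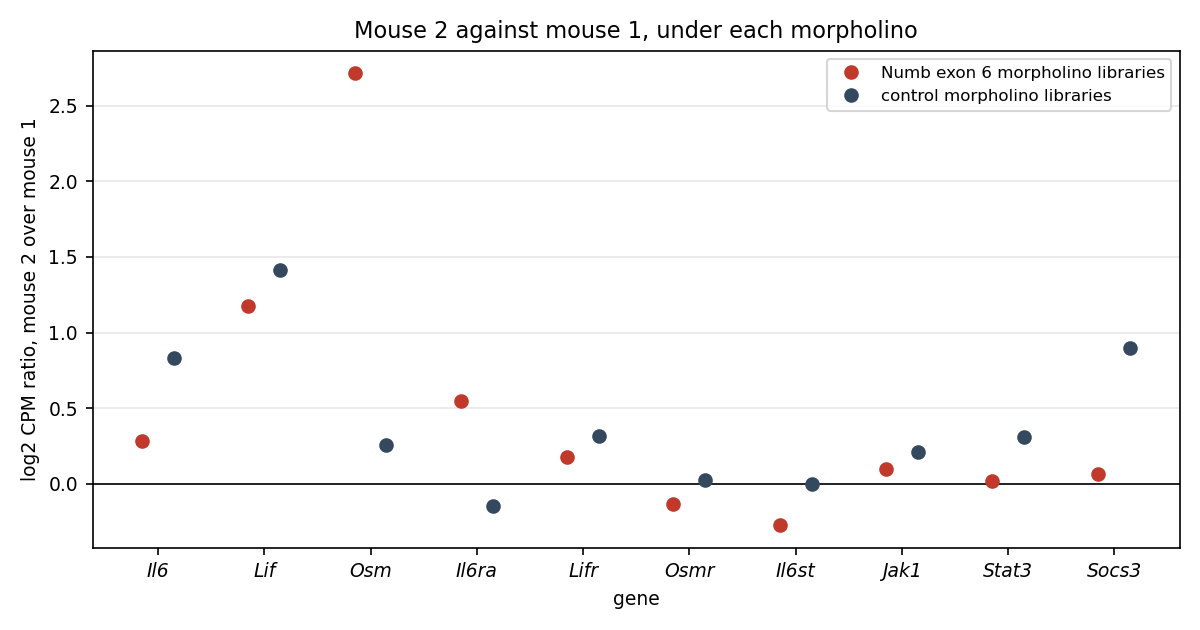
Log2 CPM ratio of mouse 2 over mouse 1 for the 10 genes, in the Numb exon 6 (red) and in the control morpholino libraries (dark), 1 library per mouse and point. Lif is the only gene above 1 under both morpholinos, at 1.17 and 1.42, while Socs3 lies at 0.07 and 0.90 and Osm at 2.72 and 0.26.

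Because Il6, Lif and Socs3 showed the largest control ratios between the mice, their promoters are given, from 250 bases before to 50 after the RefSeq start site (GRCm38.p6). The promoters of 9 of the 10 genes were matched by symbol. Capitals mark letters that match, on either strand, TTCNNNGAA (a STAT motif), GGG and TTTCC spaced by 2 bases (an NF-kB motif), TGANTCA (an AP-1 motif) or TGACGTCA (a cyclic AMP response element). Il6 is at chr5:30012864-30013163 on the plus strand, Lif at chr11:4257318-4257617 on the plus strand and Socs3 at chr11:117969317-117969616 on the minus strand.
Il6: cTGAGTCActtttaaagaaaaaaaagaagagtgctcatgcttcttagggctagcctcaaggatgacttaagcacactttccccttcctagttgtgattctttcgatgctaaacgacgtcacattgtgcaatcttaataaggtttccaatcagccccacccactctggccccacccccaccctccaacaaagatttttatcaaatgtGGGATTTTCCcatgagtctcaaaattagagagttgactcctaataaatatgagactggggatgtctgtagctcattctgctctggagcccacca
Lif: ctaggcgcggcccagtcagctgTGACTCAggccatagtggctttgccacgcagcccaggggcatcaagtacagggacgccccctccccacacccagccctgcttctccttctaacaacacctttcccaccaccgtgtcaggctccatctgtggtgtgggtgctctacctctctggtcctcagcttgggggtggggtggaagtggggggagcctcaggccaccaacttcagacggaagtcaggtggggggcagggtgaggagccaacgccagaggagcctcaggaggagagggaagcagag
Socs3: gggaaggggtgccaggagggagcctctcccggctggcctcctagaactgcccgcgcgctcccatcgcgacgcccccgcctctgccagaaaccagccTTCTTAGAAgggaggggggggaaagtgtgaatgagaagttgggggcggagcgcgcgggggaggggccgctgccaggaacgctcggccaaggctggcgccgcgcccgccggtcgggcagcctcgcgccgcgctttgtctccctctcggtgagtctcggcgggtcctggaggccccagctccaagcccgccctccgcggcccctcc
The Il6 window held 1 NF-kB and 1 AP-1 match, the Lif window 1 AP-1 match and the Socs3 window 1 STAT match. Of 32851 promoter windows of the same length, 8.3% held the STAT motif, 1.63% the NF-kB motif, 7.81% the AP-1 motif and 1.79% the cyclic AMP response element. No 2 of the matches overlap. Such matches describe letters, and binding was not measured.

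Most inflammatory genes that are known to be induced beside Il6 also had higher values in mouse 2. Of the 21 genes of NF-kB feedback and inflammation, 15 were higher and 3 lower in mouse 2 under both morpholinos, with a median log2 fold change of 0.77, beside 0.02 over all genes. None was called over all genes by edgeR, and 14 had an unadjusted p under 0.05 and a higher value, against 4.33% of all genes. Cxcl1, a neutrophil attractant, stood at 8555 and 8303 TPM in mouse 2 (exon 6 morpholino, then control), against 4168 and 4047 TPM in mouse 1 (log2 fold change 1.01 ± 0.08, SE; edgeR adjusted p = 0.0752). Tnfrsf12a, the receptor of the cytokine TWEAK, had 0.30 ± 0.09 (SE). Part of this list was known from earlier results of these data to be higher in mouse 2, so its direction is not independent evidence. Of the 26 Stat3 targets 12 were higher and 5 lower in mouse 2 under both morpholinos (median 0.17), with Junb at 0.72 ± 0.16 and Myc at 0.12 ± 0.11 (SE). Medians were 0.28 for the other Janus kinases and STAT factors, 0.08 for the inhibitors, 0.19 for the other ligands and 0.13 for the other receptors. The erythroid markers summed to 1733 and 1532 TPM in mouse 2 (exon 6 morpholino, then control), against 928 and 538 TPM in mouse 1. Of these markers 5 of 5 were higher under both morpholinos, as were 29.9% of all genes. Those of endothelium summed to 145 and 145 TPM in mouse 2, against 222 and 149 TPM in mouse 1, those of smooth muscle and pericytes to 212 and 193 TPM in mouse 2, against 265 and 236 TPM in mouse 1, and those of leukocytes to 151 and 53.9 TPM in mouse 2, against 55.0 and 44.5 TPM in mouse 1. The smooth muscle and pericyte markers had a median log2 fold change of -0.49 in mouse 2 over mouse 1. Of the 8, 5 were lower under both morpholinos, as were 27.6% of all genes. At an unadjusted edgeR p under 0.05, 4 of 8 were lower, against 8.31% of all genes in either direction. By edgeR 0 were called, against 0.0254% of all genes. Endothelial markers had a median of -0.47 and fibro-adipogenic progenitor markers a median of -0.16, each with 6 of 10 lower under both morpholinos. The part of these cells in the values of Lif, Il6 and Socs3 was not tested.

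**Figure D4:**
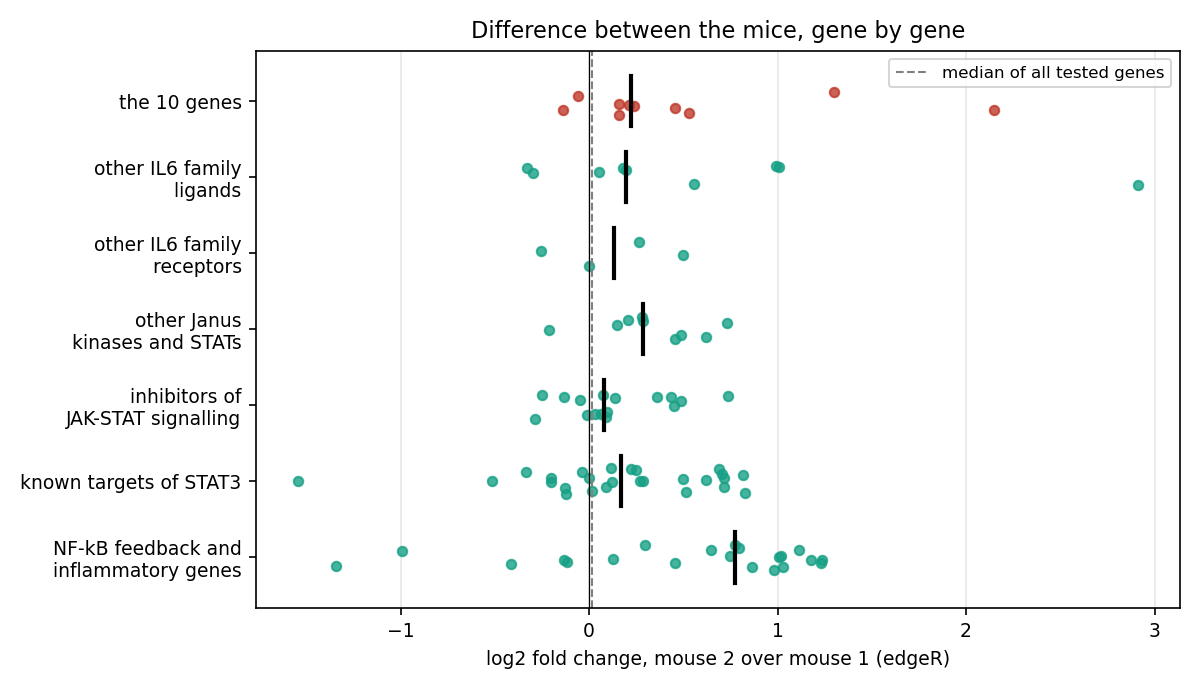
Log2 fold change of mouse 2 over mouse 1 (edgeR, 2 libraries per mouse) for each gene of the axis and of 6 related lists; 1 point is 1 gene and black bars are list medians. The bar of the NF-kB and inflammatory list lies at 0.77 and that of the 10 genes at 0.22, beside a median of 0.02 over all tested genes (dashed line).

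Over the 4 libraries, the genes most like Lif, by Euclidean distance between log2 CPM values centred on each gene's mean, were Speg, Arl5b and Gm42047, at distances of 0.19, 0.20 and 0.25. A flat profile would lie 1.30 from Lif. Arl5b, for example, stood at 51.8 and 48.9 CPM in the Numb exon 6 and control libraries of mouse 2, against 22.8 and 20.4 CPM in those of mouse 1. Nearest to Il6 were Zfp821, Tbx6 and Grhl1, at 0.03, 0.06 and 0.07, and nearest to Socs3 were Cpeb4, Ddx11 and Ripk2, at 0.08, 0.09 and 0.09. The search ran over 8468 genes whose log2 CPM averaged at least 3, with 4 values per gene.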

How the data were processed

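Per the labels' protocols, libraries of satellite cell RNA (5 ng each) followed SMART-Seq2. The submitters' processing notes name HISAT2 2.1.0, StringTie 1.3.6 and the build GRCm38, and neither they nor the labels say which annotation was used or how counts came from coverage. The authors deposited estimated counts per gene as whole numbers, without scaling between libraries. The authors also deposited TPM values, scaled to transcript length and library. Of all values from 1 to 14, 15.9% were 4, so 1 fragment may be worth several counts and the depth in fragments is unknown.

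The estimated counts were tested with edgeR 4.0.16 in R 4.3.3 (quasi-likelihood, robust, TMM, default expression filter with a minimum count of 10, Benjamini-Hochberg adjustment over all genes at 0.05), without a block, and the SE was derived from the test statistic. DESeq2 1.42.0, and limma 3.58.1 on log2(TPM + 1) and log2(TPM + 0.1), were alternatives. CPM values are scaled by TMM, and log2 CPM uses a prior count of 2. Fits were tested on simulated counts.

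The same-numbered libraries come from the same mouse, so the mouse pairs them; after removal of group means they correlated across genes at 0.40 where the mean log2 CPM was 3 or more, and at 0.06 over all tested genes. Groups came from the labels. Nothing states that the 2 libraries of a mouse are separate cultures, so p-values measure the spread between these libraries.

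The members and lists were chosen with earlier results of these data known. Named genes were the 10 members, Numb, the 2 most abundant and the 2 of smallest p of each pathway list, the 2 most abundant of each marker list, and the 3 nearest profiles to Il6, Lif and Socs3; any other is marked as chosen with its values in view. One gene that this rule names is not reported here. Coordinates are from GENCODE vM21 (GRCm38), which holds 55094 of the 55487 identifiers at the same version, and promoters from RefSeq (GRCm38.p6).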

Additional observations from a re-analysis of the deposited data

Results flagged for a closer look

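For 5 of the 10 genes the log2 ratio of Numb exon 6 over control morpholino was of opposite sign in mouse 1 and mouse 2. Socs3 had 0.62 in mouse 1 and -0.21 in mouse 2, Il6ra -0.24 and 0.46, Stat3 0.23 and -0.061, Il6st 0.19 and -0.087, and Lif 0.078 and -0.16. Each mouse gave 1 pair of libraries, so the difference between the mice was not tested, and 43.9% of all tested genes had opposite signs.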

How the results depend on the processing

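With the Numb exon 6 morpholino none of the 10 genes was called under any alternative (smallest adjusted p 0.607), and 118 of 128 values kept their sign. The log2 fold change of Lif was 0.0022 on log2(TPM + 0.1). With each library left out in turn, Il6 ran from -0.13 to 0.70, Lif from -0.80 to 0.77, Osm from -0.033 to 2.86, Il6ra from -0.16 to 0.38, Il6st from -0.091 to 0.19, Jak1 from -0.18 to 0.021, Stat3 from -0.070 to 0.23, Socs3 from -0.25 to 0.64, Lifr from 0.11 to 0.42 and Osmr from 0.069 to 0.21. Il6, Stat3 and Socs3 turned without the control of mouse 1; Lif without the Numb exon 6 library of mouse 1 or the control of mouse 2; Osm and Il6ra without the Numb exon 6 library of mouse 2; Il6st without that of mouse 1; and Jak1 without the control of mouse 2. Over all genes, 0 calls became 10 without a filter on low counts, 1 where a CPM of 5 in 2 or more libraries was required, 65 with DESeq2 and 157 with DESeq2 and the replicate block, and 0 to 1 with a library left out. The cause was not tested.

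With the mouse as a replicate block edgeR called 0 genes, and no call of the 10 changed; 1 of the 10 (Lifr, unadjusted p = 0.0328, adjusted p = 0.796) was then under an unadjusted 0.05. The interval of Lif narrowed to -0.34 to 0.25.

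Between the mice, 7 calls became 1 with the replicate block (the morpholino as a term), 119 without a filter, 43 with a CPM of at least 5, 490 with DESeq2, 3 on log2(TPM + 1), 3 on log2(TPM + 0.1) and 1 to 28 with a library left out. Lif kept its direction throughout, at 1.21 to 1.38 with a library left out, while Il6 ran from 0.28 to 0.83, Socs3 from 0.17 to 0.79, Lifr from 0.075 to 0.41, Stat3 from 0.047 to 0.27, Jak1 from 0.081 to 0.22, Il6st from -0.23 to -0.047 and Osm from 0.23 to 2.94. Il6ra ran from -0.036 to 0.41 and Osmr from -0.17 to 0.052, Il6ra turning without the exon 6 library from mouse 2 and Osmr without that from mouse 1. Osm could not be fitted at a CPM of at least 5 or with counts divided by 4. No scaling moved the median of all genes by over 0.1. Mean TPM moved by under 1 SD in each of 40 values with a library left out. Any 4 values would give this, so it does not measure how stable the levels are. With 2 libraries per group, the morpholino intervals of all 10 genes in the main fit hold 0 and changes of either sign.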

Other observations

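Ctf1, which encodes the family member cardiotrophin 1 and was picked with its values in view, was low in 1 library alone. It stood at 6.84 and 8.04 TPM in the Numb exon 6 libraries of mouse 1 and mouse 2, against 1.04 and 7.25 TPM in the controls. Its estimated counts were 1478 and 1243 with the Numb exon 6 morpholino, against 198 and 1560 with the control. The log2 ratio was 3.01 within mouse 1 and 0.06 within mouse 2, and the log2 fold change 0.81 ± 0.93 (SE; edgeR adjusted p = 0.999).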
